A study of Mus musculus with 14 samples.

Results

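The genes described here are 40 mouse genes of surface epithelium: keratins, desmosome proteins, epithelial transcription factors, mucins and proteins of the cornified envelope. They were chosen from a list of genes typical of stratified epithelium whose high and uneven levels in these same libraries were already known, so their levels are given as a description and support nothing on their own. Of the 40 genes, 39 had a row among 34452 mouse gene rows. Krt3 had no row. RNA was from the retinal pigment epithelium (RPE), the pigmented layer behind the photoreceptors, of rd1 mice on the FVB/N background at postnatal day 20, a strain whose rods die early from a mutation in Pde6b. Each of 7 mice gave 1 library from each eye. Both eyes had received AAV-Best1-GFP, which drives green fluorescent protein from the RPE-selective Best1 promoter, and 1 eye had also received AAV-Best1-Nrf2, which drives human NFE2L2 from the same promoter. The eye with both vectors is called Nrf2 and the other control below. The capsid was AAV8 for the Nrf2 vector and 7M8 for GFP, so besides the transgene a Nrf2 eye carried a vector that its control lacked. RNA was collected from the eyecup after the retina had been taken out and the outside cleaned of connective tissue, and libraries were named by group and mouse number.

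Stratified epithelium covers the cornea, the conjunctiva and the lids. Keratins pair, 1 acidic with 1 basic, into filaments that desmosomes link from cell to cell: Krt5 with Krt14 marks the basal layer, Krt12 the corneal epithelium, and Krt4 with Krt13 the moist mucosal lining such as the conjunctiva. The RPE is a simple epithelium and is known for Krt8 and Krt18, not for the keratins of stratified layers.

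Total counts were between 16548349 and 50543008 per library. CPM below are estimated counts scaled to a library total of 1e+06. The vector transcript reached 1163 to 8711 CPM in Nrf2 eyes and 1.12 to 1163 CPM in control eyes. The library labelled control 3 (1163 CPM) and the library labelled Nrf2 4 (1163 CPM) had nearly the same vector level, and counts of called genes are also given without mice 3 and 4. Control 3 and Nrf2 4 were the most alike of the 91 pairs of libraries over the 35 of the 40 genes with a mean of at least 5 CPM, with a median absolute log2 difference of 0.0660 and a largest of 0.227. The next pair, Nrf2 4 and Nrf2 5, had a median of 0.123. Control 3 and Nrf2 4 also lay close in summed lists of other tissues. These were 4669 and 4369 CPM for lens, 258 and 256 CPM for skeletal muscle and 15786 and 15571 CPM for RPE genes. One is labelled with mouse 3 and the other with mouse 4, and the reason for their likeness was not tested. Labels name 2 sequencing runs but not which library was in which. Of RPE markers, Rpe65, the isomerase of the visual cycle, lay at 134 to 1063 CPM in Nrf2 and 752 to 2220.5 CPM in control eyes, while Best1 did not exceed 3.84 CPM in any library. The list of 8 RPE genes that holds both summed to 15362 to 21540 CPM in Nrf2 and 8421 to 18781 CPM in control eyes. That sum was higher in the Nrf2 eye of 5 of 7 mice.

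The upstream sequence of 4 keratin genes is shown because they span the pattern described below: Krt12 with a 279-fold range over libraries, the basal keratin Krt5, the mucosal keratin Krt13 and Krt18, which varied least. Each run is the 250 bases before a transcript start of the gene in RefSeq on build GRCm38.p6, written 5′ to 3′ on the gene's own strand. The RefSeq start is that of GENCODE M21 for Krt12 and Krt13, lies 7 bases upstream of it for Krt5 and 36 bases inside the gene for Krt18. Capitals mark CCACCC, the box of Kruppel-like factors, or GGGTGG on the opposite strand, and TATAAA, the TATA box.
Krt12 (chr11:99422260-99422509, minus strand): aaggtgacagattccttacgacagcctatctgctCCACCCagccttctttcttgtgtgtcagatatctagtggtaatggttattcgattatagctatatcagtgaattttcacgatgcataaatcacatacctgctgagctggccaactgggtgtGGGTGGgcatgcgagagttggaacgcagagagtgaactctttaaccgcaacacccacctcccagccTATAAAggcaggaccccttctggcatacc
Krt5 (chr15:101712906-101713155, minus strand): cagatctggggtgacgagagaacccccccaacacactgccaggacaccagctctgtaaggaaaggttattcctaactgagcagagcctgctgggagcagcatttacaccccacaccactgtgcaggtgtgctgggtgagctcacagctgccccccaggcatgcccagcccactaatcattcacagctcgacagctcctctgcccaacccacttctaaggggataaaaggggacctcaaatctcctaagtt
Krt13 (chr11:100121567-100121816, minus strand): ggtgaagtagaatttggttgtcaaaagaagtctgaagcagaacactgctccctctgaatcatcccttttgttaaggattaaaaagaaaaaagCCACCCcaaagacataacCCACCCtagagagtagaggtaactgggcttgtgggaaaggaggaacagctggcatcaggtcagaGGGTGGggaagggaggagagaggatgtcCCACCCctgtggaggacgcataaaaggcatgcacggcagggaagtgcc
Krt18 (chr15:102027966-102028215, plus strand): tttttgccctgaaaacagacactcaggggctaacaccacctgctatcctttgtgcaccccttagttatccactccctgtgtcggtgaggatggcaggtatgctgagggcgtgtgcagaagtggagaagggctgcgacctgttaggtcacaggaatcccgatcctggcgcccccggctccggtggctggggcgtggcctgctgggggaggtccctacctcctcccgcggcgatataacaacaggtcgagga

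Krt12 held 2 CCACCC boxes and 1 TATAAA, Krt13 held 4 CCACCC boxes and no TATAAA, and Krt5 and Krt18 held neither. RefSeq promoters matched 20 of the 40 genes, 22 promoters in all, of which 5 (of Krt7, Krt8, Krt13, Krt14 and Grhl1) begin over 100 bases inside the gene as GENCODE has it, and each motif was searched on both strands of the 250 bases. CCACCC was in 11 of 22 member promoters (50%) and in 28.1% of 32851 promoters. TATAAA was in 5 of 22 (22.7%) against 12.4%. TGACTCA, the AP-1 motif, was in 3 of 22 (13.6%) against 4.46%, and its letters can overlap TGACNNNGC, the core of the antioxidant response element that Nrf2 binds, which was in 2 of 22 (9.09%) against 10.2%. AACCGGTT, the Grainyhead motif, was in none of the 22 and in 0.116% of all promoters. These are matches of letters and say nothing of binding.

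The 39 genes together took 0.454% to 8.44% of all counts in a library. Their share was 0.700, 1.27, 1.46, 3.51, 3.50, 1.18 and 0.454 in Nrf2 libraries 1 to 7 and 2.00, 3.89, 3.68, 0.472, 5.27, 8.44 and 2.60 in control libraries 1 to 7 (percent of counts). The highest share was in control 6, with a 95% Wilson interval of 8.43% to 8.45%, and the lowest in Nrf2 7, with 0.453% to 0.456%. These intervals cover counting error only. The sum holds Krt8 and Krt18, which the RPE itself is known for. They stood at 301 and 761 CPM in control 4, where all 39 genes summed to 4717 CPM. In Nrf2 7 they stood at 177 and 623 CPM of 4544 CPM. The share was lower in the Nrf2 eye of 6 of 7 mice, the exception being mouse 4, whose control library had the lowest share of the 7 controls. The groups overlapped. In bulk RNA, fewer cells of a type and less RNA per cell cannot be told apart.

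**Figure D1:**
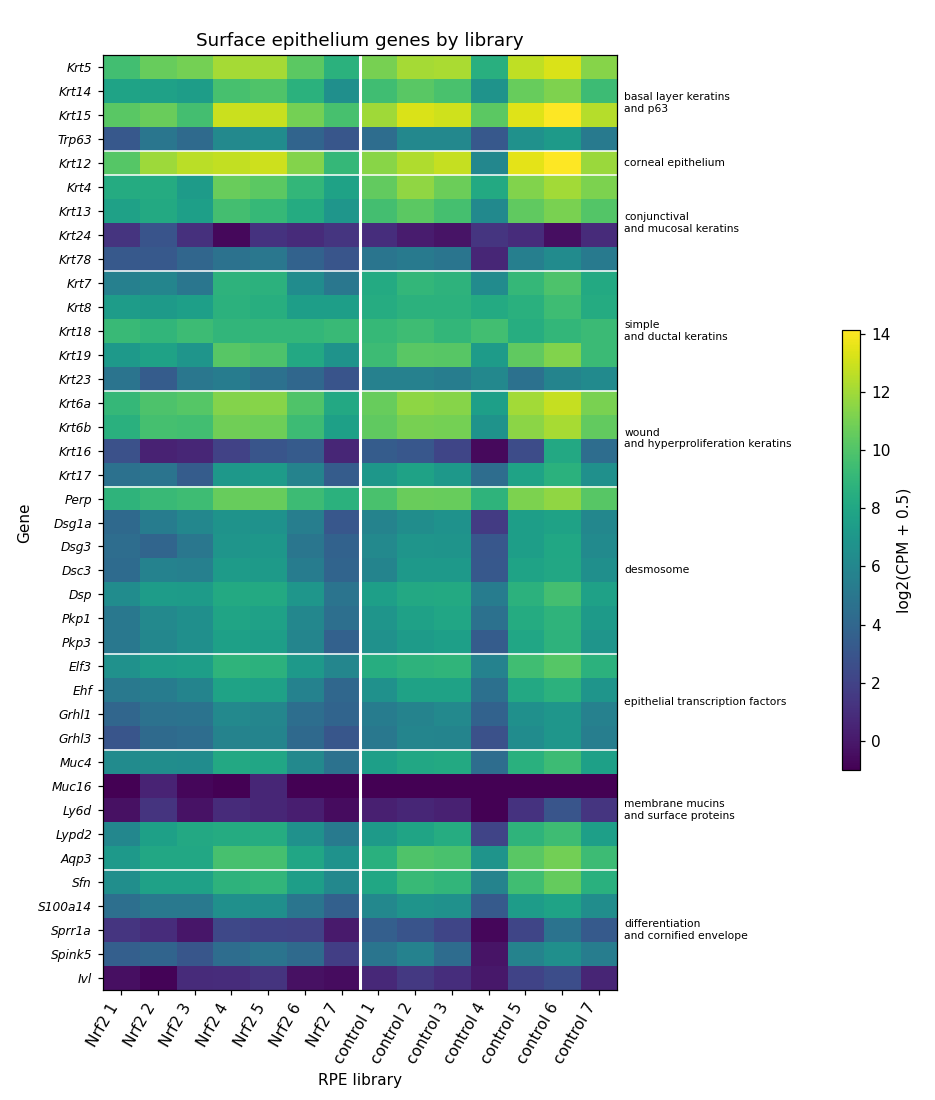
Level of the 39 genes with a row (rows, grouped by role) in each of the 14 RPE libraries (columns, Nrf2 left and control right of the white line), as log2(CPM + 0.5) by colour. Control 6 is the brightest column, being highest for 35 genes, control 4 and Nrf2 7 are dark, and Krt18 keeps 1 shade throughout.

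The spread between libraries was wide and shared. Control 6 was the highest library for 35 of the 39 genes, and the lowest was control 4 for 21 and Nrf2 7 for 10. Over the 37 tested genes with a count in every library the ratio of highest to lowest library had a median of 28.4, beside 2.93 over all tested genes with such a ratio. The genes were chosen with their uneven levels known, and a wide spread was not particular to them. The median was 180 for the corneal epithelium list (Krt12 and Lypd2 among it), 118 for lens and 23.8 for skeletal muscle. It was 18.6 for other surface epithelium genes and 5.50 for RPE genes. Among roles the ratio was largest for the corneal one, at 279 for its 1 tested gene, Krt12. The median ratio was 90.6 for differentiation and cornified envelope genes, 45.0 for mucosal keratins and 41.0 for wound keratins. It was 32.3 for membrane mucins and surface proteins, 30.9 for desmosome genes and 24.1 for the basal layer. Transcription factors had 20.8 and simple and ductal keratins 10.5.

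Per kb of exon, which allows levels of different genes to be compared, Krt15 and Krt12 led with means of 3226 and 2982 CPM per kb over the 14 libraries. Krt5 followed with 1471, then Krt6a with 892, Krt6b with 671, Krt4 with 665 and Perp with 626 CPM per kb. Thus in RPE libraries several stratified keratins stood above Rpe65, which had 457 CPM per kb, and Krt12 and Krt15 stood above the melanosome gene Pmel, with 2245. At the low end were Ly6d with 1.91, Krt24 with 0.912 and Ivl with 0.777 CPM per kb. Libraries ranged from 34.6 to 9658 CPM per kb for Krt12 and from 69.5 to 1148 for Rpe65, so the order of means does not hold in every library.

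To ask whether the genes differed between Nrf2 and control eyes, all genes were fitted together with edgeR's quasi-likelihood test, with mouse and treatment as terms. Of the 40 genes, 38 were tested. Muc16, a membrane mucin, was not, with 0 counts in all control eyes and at most 1.01 CPM, in Nrf2 5. None of the 38 had an adjusted p under 0.05, the smallest being 0.183 for Krt4, beside 80 of 16289 genes (0.491%) called lower. The vector transcript itself was not called in this fit, with a log2 fold change of 7.36 ± 1.74 (SE) at an adjusted p of 0.0598. A gene that was not called is therefore not shown to be unchanged. At an unadjusted p under 0.05 there were 7 of 38 (18.4%), all lower in Nrf2 eyes, beside 18.1% of all genes in either direction and 7.49% lower. The median log2 fold change of the 38 was -1.22, and -0.04 over all genes. In all, 34 of 39 genes were lower in the Nrf2 eye of 6 of 7 mice. The share of all genes lower in as many mice was not counted. Control 6 was the highest library for 35 of the 39, so these genes are not separate observations.

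Mouse 4 went the other way. In mouse 4, 35 genes were higher in the Nrf2 eye and 3, Krt18, Krt23 and Krt24, were lower, while in each other mouse 34 to 37 of the 39 were lower. Without mouse 4, edgeR called 29 of 38 genes (76.3%) lower, beside 6.25% of 16318 genes, and their median log2 fold change was -1.71. With mice 3 and 4 both out it called 14 of 38 (36.8%) lower, beside 1.53% of 16563 genes, with a median of -1.81. DESeq2 with all 7 mice called 8 of 38 lower (4.33% of all genes), namely Krt4, Krt7, Krt13, Krt14, Krt15, Krt17, Krt19 and Krt23, and voom with quality weights in limma called 6 (6.18% of all genes), namely Krt4, Krt7, Krt15, Krt17, Krt19 and Spink5. Leaving out any other single mouse gave no member call. The result thus turned on 1 mouse and on the test. Mouse 4 went against the other mice in these same genes, so leaving it out, here and below, makes the remaining mice agree by that choice. Adjusted p-values from such fits describe the remaining mice and are no independent test. The Nrf2 library of mouse 4, Nrf2 4, is the one that was so like control 3, for a reason not tested.

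**Figure D2:**
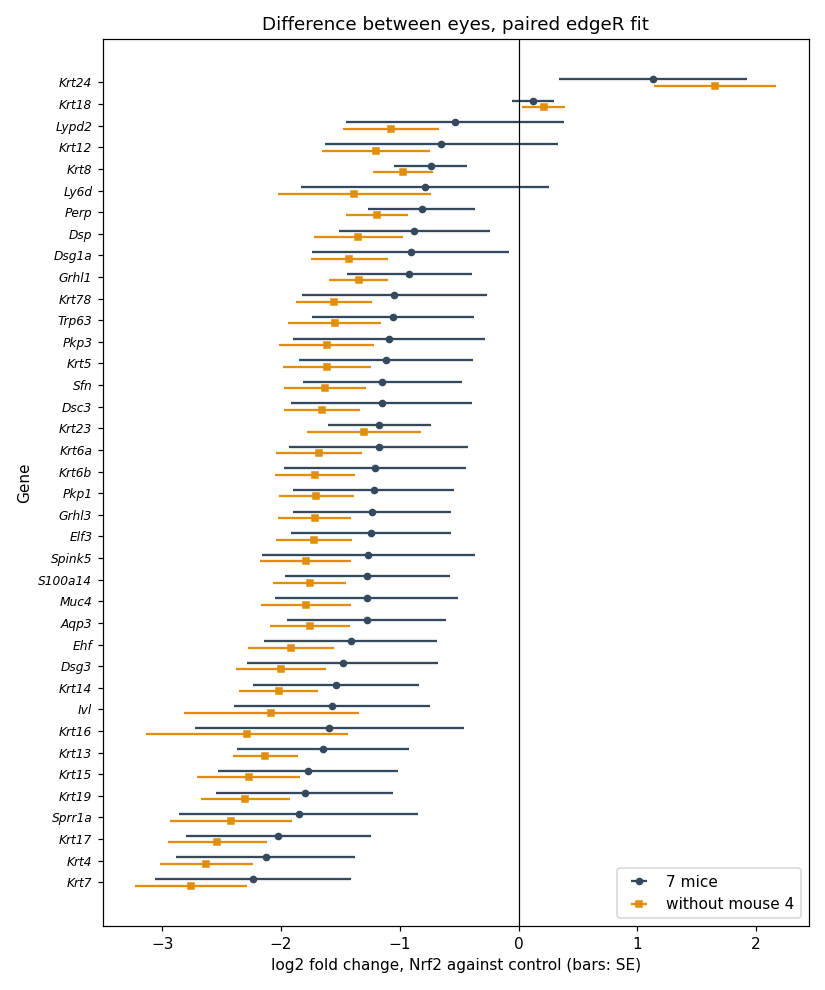
Log2 fold change (Nrf2 against control) of the 38 tested genes with its standard error, from edgeR with mouse as a block, for 7 mice (dark circles) and without mouse 4 (orange squares). With 7 mice 36 of 38 values lie below 0, and without mouse 4 the values move further left for all but Krt18 and Krt24, which lie above 0 in both.

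In the basal layer, Krt15, a keratin of basal and limbal cells (ENSMUSG00000054146, chromosome 11, 100131758 to 100135928, GRCm38), stood at 1207, 1635, 793, 7878, 7409, 1974 and 865 CPM in Nrf2 libraries 1 to 7 and at 4028, 9724, 8478, 1261, 10952, 17978 and 5634 CPM in control libraries 1 to 7. It was lower in the Nrf2 eye of every mouse but mouse 4, and the groups overlapped. Its log2 fold change was -1.77 ± 0.76 (SE) at an adjusted p of 0.264, and -2.27 ± 0.43 (SE) at an adjusted p of 0.0159 without mouse 4. Krt5, the basic basal keratin (chromosome 15, 101707070 to 101712898), stood at 746, 1557, 1975, 4381, 4361, 1265 and 409 CPM in Nrf2 libraries 1 to 7 and at 2067, 4364, 4678, 368, 6505, 9871 and 2697 CPM in control libraries 1 to 7. Control 4 was the lowest library and control 6 the highest. The log2 fold change was -1.12 ± 0.73 (SE) at an adjusted p of 0.452, and -1.61 ± 0.37 (SE) at an adjusted p of 0.0295 without mouse 4. Krt14, its acidic partner (chromosome 11, 100203162 to 100207548), ranged from 92.9 to 994 CPM (median 219) in Nrf2 eyes and from 109.6 to 2367 CPM (median 871) in control eyes, with a log2 fold change of -1.54 ± 0.70 (SE) at an adjusted p of 0.289. Trp63, the factor p63 that keeps basal cells, ranged from 7.89 to 80.5 CPM (median 18.4) in Nrf2 eyes and from 8.41 to 155 CPM (median 65.1) in control eyes, with a log2 fold change of -1.06 ± 0.68 (SE) at an adjusted p of 0.445. All 4 basal genes were called lower without mouse 4, and Krt14 of them without mice 3 and 4.

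Krt12, the keratin of corneal epithelium (ENSMUSG00000020912, chromosome 11, 99415666 to 99422259), stood at 1130.2, 3792, 6083, 6803, 7973, 2590.4 and 549 CPM in Nrf2 libraries 1 to 7 and at 2823, 5147, 7175, 64.05, 11508, 17887 and 3787 CPM in control libraries 1 to 7. The range was 279-fold, from control 4, which had far less than any other library, to control 6. Means were 6913 ± 6029 CPM in control and 4131 ± 2888 CPM in Nrf2 eyes (SD, n = 7). The log2 fold change was -0.65 ± 0.98 (SE) at an adjusted p of 0.765, and -1.20 ± 0.45 (SE) at an adjusted p of 0.132 without mouse 4, so Krt12 was not called in either fit.

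Among mucosal keratins, Krt13 (chromosome 11, 100117327 to 100121566) stood at 201, 286, 185, 784, 556, 319 and 122 CPM in Nrf2 libraries 1 to 7 and at 771, 1273, 821, 72.2, 1368, 2223 and 1105 CPM in control libraries 1 to 7. It was lower in the Nrf2 eye of every mouse but mouse 4, and the groups overlapped. Its log2 fold change was -1.65 ± 0.73 (SE) at an adjusted p of 0.277, and -2.13 ± 0.27 (SE) at an adjusted p of 0.00408 without mouse 4, the smallest adjusted p of any member there. Krt4, its basic partner (chromosome 15, 101918535 to 101924735), stood at 318, 324, 155, 1636, 1264, 517 and 208 CPM in Nrf2 libraries 1 to 7 and at 1447, 3133, 1671, 296, 2507, 4142 and 2249 CPM in control libraries 1 to 7. Again the eyes of mouse 4 were the only ones to place a Nrf2 eye above its control, and the groups overlapped. The log2 fold change was -2.13 ± 0.75 (SE) at an adjusted p of 0.183, and -2.63 ± 0.39 (SE) at an adjusted p of 0.00709 without mouse 4. Krt78, a basic keratin, ranged from 7.46 to 31.2 CPM (median 12.9) in Nrf2 eyes and from 1.03 to 77.8 CPM (median 36.3) in control eyes and was called lower without mouse 4 (log2 fold change -1.55 ± 0.32 (SE) at an adjusted p of 0.0205). Krt24 was at most 7.25 CPM, in Nrf2 2, and was higher in the Nrf2 eye of 6 of 7 mice, with a log2 fold change of 1.14 ± 0.79 (SE) at an adjusted p of 0.480.

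**Figure D3:**
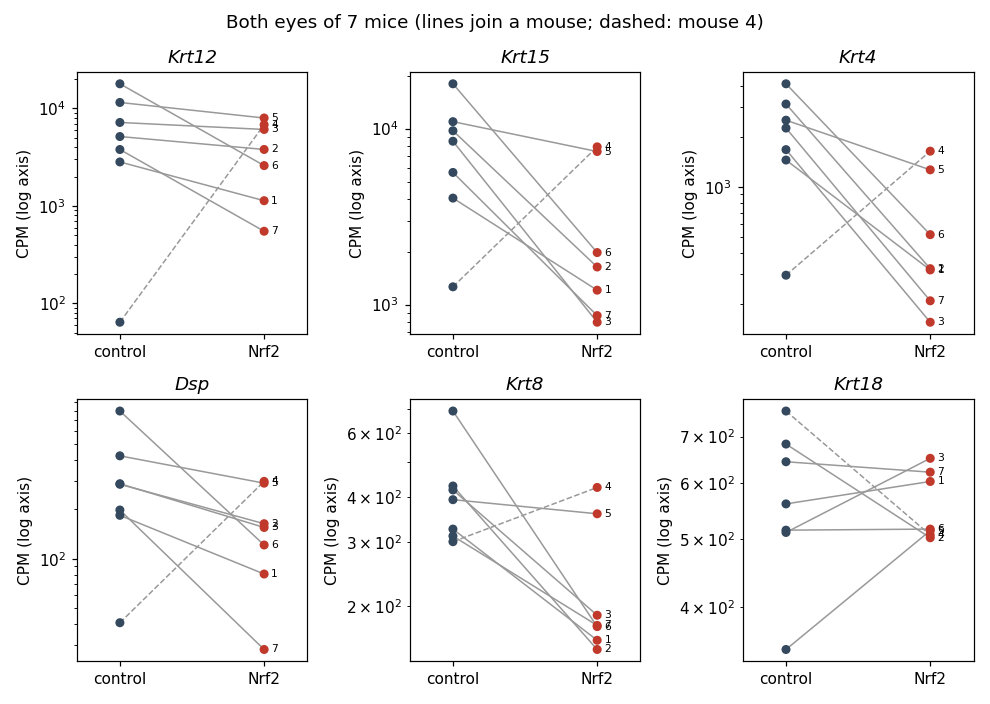
Level in CPM (log axis) of 6 genes in the control and Nrf2 eye of each of 7 mice, with a line joining the eyes of a mouse and the dashed line being mouse 4. Krt12, Krt15, Krt4 and Dsp are lower in the Nrf2 eye of all mice but mouse 4, Krt8 in the same 6 mice by less, and Krt18 stays between 348 and 761 CPM.

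Simple and ductal keratins divided. Krt18 (chromosome 15, 102028180 to 102032027), a keratin of simple epithelia, stood at 604, 502, 652, 507, 514, 516 and 623 CPM in Nrf2 libraries 1 to 7 and at 561, 683, 511, 761, 348, 515 and 644 CPM in control libraries 1 to 7. Its highest library exceeded its lowest by 2.19-fold, and the groups overlapped throughout, with a log2 fold change of 0.12 ± 0.18 (SE) at an adjusted p of 0.755. Krt8, its basic partner (chromosome 15, 101996698 to 102004482), stood at 161, 152, 189, 425, 359, 176 and 177 CPM in Nrf2 libraries 1 to 7 and at 326, 429, 418, 301, 393, 689 and 312 CPM in control libraries 1 to 7. It was lower in the Nrf2 eye of 6 of 7 mice, most of all in mouse 6, with a log2 fold change of -0.74 ± 0.30 (SE) at an adjusted p of 0.246. Krt8 was called lower without mouse 4, with a log2 fold change of -0.97 ± 0.25 (SE) at an adjusted p of 0.0443, and not without mice 3 and 4 (adjusted p 0.119). Accordingly the ratio of Krt8 to Krt18 counts was not fixed: it was 0.267, 0.303, 0.290, 0.838, 0.700, 0.341 and 0.285 in Nrf2 libraries 1 to 7 and 0.582, 0.627, 0.818, 0.396, 1.13, 1.34 and 0.484 in control libraries 1 to 7.

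Krt7, a keratin of ducts and glands, ranged from 30.5 to 449 CPM (median 57.9) in Nrf2 eyes and from 79.03 to 952 CPM (median 449) in control eyes, with a log2 fold change of -2.23 ± 0.83 (SE) at an adjusted p of 0.202. That fold change was the lowest of the 38. Krt19, a keratin of ducts and of conjunctiva, ranged from 107 to 1165 CPM (median 211) in Nrf2 eyes and from 159 to 2464 CPM (median 1164) in control eyes, with a log2 fold change of -1.80 ± 0.75 (SE) at an adjusted p of 0.251. Both were called lower without mouse 4 and also without mice 3 and 4. Krt23, an acidic keratin, ranged from 7.12 to 40.9 CPM (median 25.04) in Nrf2 eyes and from 24.9 to 75.1 CPM (median 49.2) in control eyes, with a log2 fold change of -1.17 ± 0.44 (SE) at an adjusted p of 0.204, and was not called without mouse 4 either (adjusted p 0.125).

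Of the keratins that wounded or fast-dividing epithelium is known for, Krt6a ranged from 281 to 2689 CPM (median 1012) in Nrf2 eyes and from 182 to 7212 CPM (median 2662) in control eyes and Krt6b from 194 to 1878 CPM (median 747) in Nrf2 eyes and from 111 to 4623 CPM (median 1989) in control eyes. Their log2 fold changes were -1.18 ± 0.75 (SE) at an adjusted p of 0.442 and -1.21 ± 0.77 (SE) at an adjusted p of 0.438. Krt17 ranged from 9.89 to 155 CPM (median 27.6) in Nrf2 eyes and from 21.03 to 399 CPM (median 134) in control eyes, with a log2 fold change of -2.03 ± 0.78 (SE) at an adjusted p of 0.218. These 3 were called lower without mouse 4, and Krt17 of them without mice 3 and 4. Krt16 stayed at or under 20.6 CPM in 13 libraries and reached 277 CPM in control 6, and it was not called in either fit.

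Counts of near-identical keratins are less certain. Of the 31-base words of Krt6b transcripts, 56.96% also occurred in other genes. The figures were 51.9% for Krt16, 51.3% for Krt6a and 28.2% for Krt14. For Dsg1a the figure was 41.4% (38.0% with Dsg1b), and for Krt8 it was 32.3% (32.2% with its pseudogene Krt8-ps). Krt6a held 1.12 to 1.64 times the counts of Krt6b in all libraries. Under 1% was shared for 26 of the 39 genes, and those that shared none included Krt12, Trp63, Krt24, Krt23 and Perp. The 9 keratins on chromosome 11 lay within 981 kb (99279959 to 100261029), and the 8 on chromosome 15 within 621 kb (101411043 to 102032027).

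Desmosome genes lay lower in the Nrf2 eye of 6 of 7 mice without exception. Perp, a tetraspan protein of desmosomes, ranged from 401 to 1569.7 CPM (median 667) in Nrf2 eyes and from 463 to 3127 CPM (median 1582) in control eyes, with a log2 fold change of -0.82 ± 0.45 (SE) at an adjusted p of 0.375. Dsp, which ties keratin filaments to the desmosome plaque, ranged from 28.02 to 297 CPM (median 155) in Nrf2 eyes and from 40.8 to 796 CPM (median 285) in control eyes, with a log2 fold change of -0.88 ± 0.64 (SE) at an adjusted p of 0.498. It was the only one of the 7 not called lower without mouse 4 (adjusted p 0.0533). The cadherin Dsg1a ranged from 8.03 to 107 CPM (median 44.1) in Nrf2 eyes and from 2.58 to 209 CPM (median 84.9) in control eyes, with a log2 fold change of -0.91 ± 0.83 (SE) at an adjusted p of 0.595. The other cadherins, Dsg3 and Dsc3, and the plaque proteins Pkp1 and Pkp3 had log2 fold changes between -1.48 and -1.09. With mice 3 and 4 out, Dsg1a, Dsg3 and Pkp1 were called.

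The transcription factors of stratified and glandular epithelium were all called lower without mouse 4. Elf3, an ETS factor of epithelial differentiation, ranged from 61.8 to 468 CPM (median 164) in Nrf2 eyes and from 52.8 to 1133 CPM (median 447) in control eyes, with a log2 fold change of -1.24 ± 0.68 (SE) at an adjusted p of 0.370. Ehf, a related ETS factor, ranged from 16.1 to 217 CPM (median 52.6) in Nrf2 eyes and from 23.1 to 423 CPM (median 207) in control eyes, with a log2 fold change of -1.41 ± 0.73 (SE) at an adjusted p of 0.348. Grhl1 and Grhl3, Grainyhead factors of barrier formation, had log2 fold changes of -0.92 and -1.23. Without mice 3 and 4, Elf3, Grhl1 and Grhl3 were called.

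At the cell surface, the membrane mucin Muc4 ranged from 26.02 to 275 CPM (median 82.8) in Nrf2 eyes and from 20.5 to 661 CPM (median 274) in control eyes, with a log2 fold change of -1.28 ± 0.77 (SE) at an adjusted p of 0.417. The water and glycerol channel Aqp3 ranged from 105 to 848 CPM (median 271) in Nrf2 eyes and from 112 to 1922 CPM (median 898) in control eyes, with a log2 fold change of -1.28 ± 0.67 (SE) at an adjusted p of 0.354. Muc4 and Aqp3 were called lower without mouse 4. Lypd2, of the Ly6 family, ranged from 35.8 to 324 CPM (median 197) in Nrf2 eyes and from 3.82 to 698 CPM (median 229) in control eyes and was not called (log2 fold change without mouse 4 -1.08 ± 0.41 (SE) at an adjusted p of 0.130). Ly6d, of the same family, ranged from 0.218 to 1.93 CPM (median 0.700) in Nrf2 eyes and from 0 to 7.53 CPM (median 1.03) in control eyes, highest in control 6, and had 0 counts in control 4, which allows up to 0.106 CPM (3 counts).

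Differentiation genes were led by Sfn, the 14-3-3 sigma protein of differentiating keratinocytes, which ranged from 67.3 to 495 CPM (median 198) in Nrf2 eyes and from 53.8 to 1494 CPM (median 489.6) in control eyes, with a log2 fold change of -1.15 ± 0.67 (SE) at an adjusted p of 0.401. S100a14, a calcium-binding protein, had a log2 fold change of -1.27 ± 0.69 (SE) at an adjusted p of 0.372. Genes of the cornified envelope were low: Sprr1a ranged from 0.435 to 4.37 CPM (median 2.06) in Nrf2 eyes and from 0.106 to 26.9 CPM (median 7.04) in control eyes, and involucrin (Ivl) did not exceed 5.47 CPM. Spink5, a protease inhibitor of stratified epithelium, ranged from 2.95 to 27.4 CPM (median 14.4) in Nrf2 eyes and from 0.353 to 92.7 CPM (median 41.4) in control eyes. Sfn, S100a14, Sprr1a and Spink5 were called lower without mouse 4, and S100a14 of them without mice 3 and 4.

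Roles were set side by side without a test of the difference between them. The median over 7 mice of the Nrf2 to control ratio of summed CPM was 0.141 for mucosal keratins, 0.222 for the basal layer, 0.323 for transcription factors, 0.338 for differentiation genes, 0.340 for wound keratins, 0.393 for surface proteins, 0.445 for desmosomes, 0.480 for simple and ductal keratins and 0.693 for Krt12, the 1 corneal keratin with a row. A sum can hide unlike genes: the simple and ductal list holds Krt18 (log2 fold change 0.12) with Krt7 (-2.23) and Krt19 (-1.80). Median fitted log2 fold changes of the roles lay closer together, from -1.40 for wound keratins to -1.03 for surface proteins, and Krt12 had -0.65 ± 0.98 (SE). The ratio of Krt12 to Krt13 counts was 5.64, 13.2, 32.9, 8.67, 14.3, 8.12 and 4.50 in Nrf2 libraries 1 to 7 and 3.66, 4.04, 8.74, 0.887, 8.41, 8.05 and 3.43 in control libraries 1 to 7. Each mouse had the higher ratio in its Nrf2 eye, mouse 4 included, by 1.01-fold in mouse 6 and up to 9.78-fold in mouse 4. The ratio of Krt12 to Krt4 was also higher in 7 of 7 mice, that of Krt12 to Krt15 in 6 of 7 and that of Krt12 to Krt5 in 6 of 7. With other genes of the corneal list, the ratio of Aqp5 to Krt13 was higher in 7 of 7 mice. That of Slurp1 to Krt13 was higher in 5 of 7 and lower in 2. These ratios were picked after their values were seen, and their difference between eyes was not tested.

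**Figure D4:**
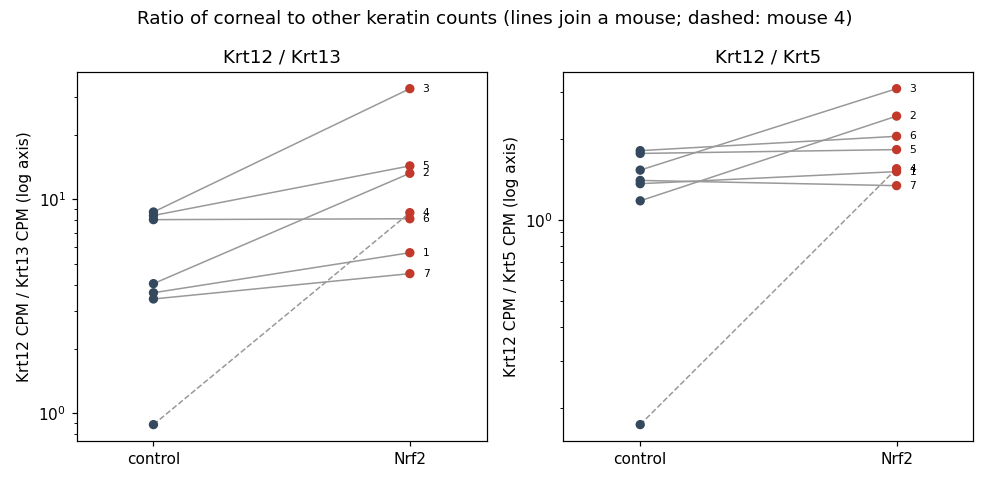
Ratio of Krt12 to Krt13 counts (left) and of Krt12 to Krt5 counts (right), log axes, in the control and Nrf2 eye of each mouse, with lines joining the eyes of a mouse and mouse 4 dashed. The ratio to Krt13 lies above that of the control eye in all 7 mice, and the ratio to Krt5 in 6 of 7, with control 4 at the bottom of both panels.

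Genes of neighbouring tissues were set beside the members. Of 40 further genes of surface epithelium, none was called in the 7-mouse fit, beside 0.491% of all genes called lower. At an unadjusted p under 0.05 there were 2 of 40, both lower, beside 18.1% of all genes in either direction and 7.49% lower. Without mouse 4, 25 of 40 were called lower, beside 6.25% of all genes, and without mice 3 and 4, 6 of 40, beside 1.53%. Their median log2 fold change in the 7-mouse fit was -1.003. The junction cadherin Cdh1 ranged from 15.3 to 207 CPM (median 40.6) in Nrf2 eyes and from 23.3 to 367 CPM (median 171) in control eyes, and Epcam, an epithelial adhesion molecule, from 10.8 to 111 CPM (median 20.3) in Nrf2 eyes and from 16.2 to 199.8 CPM (median 100.3) in control eyes. Of 7 corneal epithelium genes (Krt12 and Lypd2 among them), Aldh3a1, the corneal crystallin enzyme, ranged from 328 to 3113 CPM (median 1422) in Nrf2 eyes and from 97.3 to 6292 CPM (median 2176) in control eyes, and Slurp1, a secreted corneal protein, from 1.58 to 87.1 CPM (median 25.5) in Nrf2 eyes and from 0.566 to 102 CPM (median 43.9) in control eyes. Psca and Upk1b were called lower without mouse 4. Muc5ac, the goblet cell mucin, reached 52.1 CPM in Nrf2 5 and 11.6 CPM in control 6 and was at most 1.56 CPM elsewhere. Epidermal Krt1 lay between 0.302 and 8.31 CPM and Krt10 between 13.3 and 25.95 CPM. Kera, of the corneal stroma, did not exceed 0.835 CPM. The list of 7 genes of corneal stroma and endothelium that holds Kera summed to far more, 2471 to 4053 CPM in Nrf2 and 1034 to 4622 CPM in control eyes.

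Lens and muscle genes did not follow the members' order. The lens crystallin Cryaa ranged from 16.5 to 2251 CPM (median 577) in Nrf2 eyes and from 87.9 to 2480.4 CPM (median 535) in control eyes, highest in control 3 and Nrf2 4. The muscle actin Acta1 ranged from 4.24 to 99.9 CPM (median 14.4) in Nrf2 eyes and from 4.84 to 101 CPM (median 29.4) in control eyes. The summed lens list was 350.0 CPM in control 6, where the members stood highest, and 51.03 CPM in Nrf2 7. The summed RPE list was lowest in control 6, at 8421 CPM, beside 21539.9 CPM at its highest. The summed RPE list was higher in the Nrf2 eye of 5 of 7 mice, and of its 8 genes 4 had a log2 fold change below 0, with a median of -0.05. Only Rpe65 of them was called with all mice. It was lower in the Nrf2 eye of 7 of 7 mice (log2 fold change -2.17 ± 0.37 (SE) at an adjusted p of 0.0199), and Angptl7, listed with corneal stroma, was higher in 7 of 7 (log2 fold change 1.86 ± 0.30 (SE) at an adjusted p of 0.0164). The call of Rpe65 was lost without mouse 1, 2, 3, 5 or 6, and that of Angptl7 without mouse 1, 3, 5 or 7. Ttr, a carrier of thyroid hormone and retinol-binding protein, was called higher without mouse 4 (log2 fold change 1.90 ± 0.36 (SE) at an adjusted p of 0.0152), with DESeq2, with voom and with no replicate block. The part of surface epithelium in those differences was not tested.

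**Figure D5:**
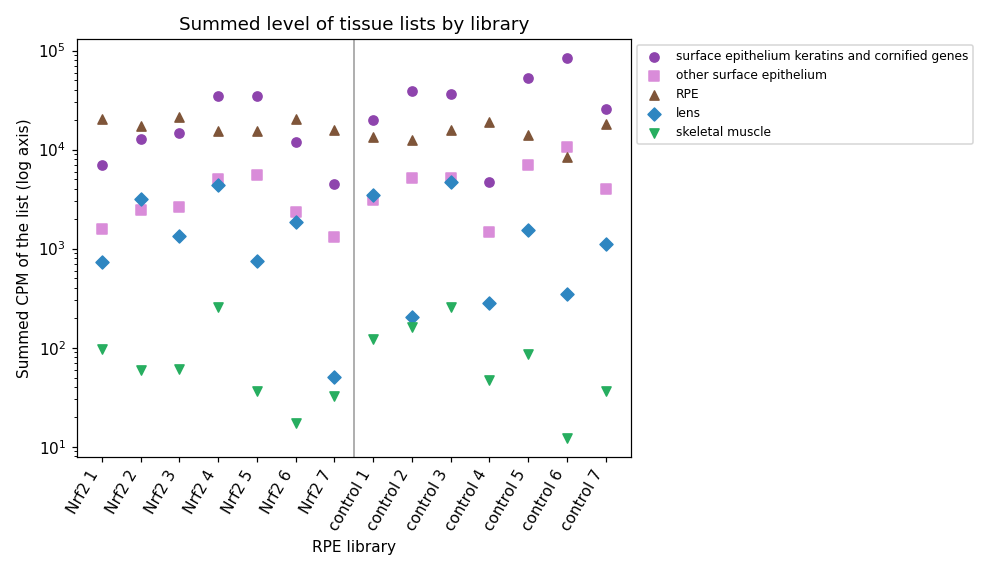
Summed CPM (log axis) of 5 gene lists in each of the 14 libraries, Nrf2 left and control right of the line. The surface epithelium genes, Krt8 and Krt18 among them, span 4544 to 84371 CPM and their low points are Nrf2 7 and control 4. The RPE list stays between 8421 and 21540 CPM, and the lens list orders the libraries differently.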

How the data were processed

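RNA was collected from RPE of both eyes of 7 mice, amplified with a low-input kit and sequenced in 2 runs. The labels hold 7 pairs, 1 more than the study's methods give for this comparison, and which pair was left out there is not given in the sources used here. The authors aligned reads to mm10 (Ensembl 91) in bcbio-nextgen and quantified them with Salmon 0.9.1 per the submitters' processing notes. The authors deposited estimated counts of each gene, taken to be Salmon's from the row set (inferred, not stated), rounded to whole numbers and not normalized. The vector row was kept in the fit and not counted. GENCODE M21 (GRCm38) gave positions and exon lengths, and 34401 of 34452 rows were named.

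Counts were fitted with edgeR 4.0.16 (R 4.3.3): TMM, filterByExpr with a minimum count of 10, mouse and treatment as terms, a quasi-likelihood F-test and Benjamini-Hochberg adjustment over all genes tested, with a threshold of 0.05. Standard errors came from the F statistic. The scripts were tested on simulated data. DESeq2 1.42.0, voom in limma 3.58.1, RLE, no replicate block, no filter and leaving out mice were alternatives. The labels give each library an individual number, shared by 1 Nrf2 and 1 control library, and eyes were paired by it. The correlation of the eyes' deviations over 16289 genes in mice 1 to 7 was 0.002, 0.083, 0.029, -0.305, 0.303, -0.165 and 0.144. Members and lists were chosen with earlier results of these data known. By the rule for named genes all 40 were accounted for. Those it lists are given by library or as lowest, median and highest per group, the others by range, level or fold change, besides defining genes of other lists and any gene past the threshold. Best1, Pmel, Ttr and the ratios of keratins were named after their values were seen. The unit of replication was the mouse. Shares carry Wilson intervals at 95%.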

Additional observations from a re-analysis of the deposited data

Results flagged for a closer look

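In groups of 7 libraries, 5 of 78 gene and group combinations of these genes had a highest or lowest library far from the others by Dixon's test, where chance gives about 4. Krt24 reached 7.25 CPM in Nrf2 2, above the other Nrf2 libraries. In control 6, Krt8 reached 689 CPM, Krt16 277 CPM, Ly6d 7.53 CPM and Sprr1a 26.9 CPM, each above the other control libraries. Control 6 was also the library with the largest summed share of these genes.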

How the results depend on the processing

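The count of genes called over all genes was 559 with edgeR and mouse as a block. It was 1100 with no replicate block, 1943 with DESeq2, 2592 with voom and quality weights, 347 with no filter on low counts, and from 111 to 1998 with each mouse left out in turn. It was 747 without mice 3 and 4. The count of member genes called was 0 with mouse as a block and also 0 with no replicate block, 8 with DESeq2, 6 with voom and 14 without mice 3 and 4, from 0 to 29 with each mouse left out, all lower, and 0 with RLE normalization or no filter. Of the other surface epithelium genes, 0 were called, 2 with DESeq2, 3 with voom, 6 without mice 3 and 4, and from 0 to 25 with each mouse left out. Only leaving out mouse 4 gave member calls among the single mice. A fit without the vector row, chosen after seeing the data, called 441 genes and 0 members. No log2 fold change of the 38 tested surface epithelium genes changed sign in these alternatives. Medians of other lists did: that of the lens list was 0.12 with all mice and -0.97 with voom, and that of corneal stroma was 0.25 and -0.09. The pairing came from the labels, which give 1 Nrf2 and 1 control library the same individual number, although correlations of the eyes' deviations were not all positive.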

Other observations

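Goblet cell genes and the membrane mucin Muc16 were picked out after their values were seen. Muc16 was at 0.906 CPM in Nrf2 2 and 1.01 CPM in Nrf2 5, and no other library exceeded 0.0931 CPM. Of the goblet cell genes, Muc5ac, Tff1, Agr2 and Fcgbp were highest in Nrf2 5, at 52.1, 0.740, 22.2 and 7.40 CPM, and Spdef and Foxa3 in Nrf2 2, at 2.90 and 1.15 CPM. Control 6, where 35 of 39 surface epithelium genes were highest, was the highest library for none of these 7. Filaggrin (Flg), an epidermal gene, was also highest in Nrf2 2, and no control eye exceeded 1.12 CPM. The difference between these libraries and the others was not tested.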
